A study of Mus musculus with 6 samples.

Results

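The 34 genes described here carry glucose into the cell, split it to pyruvate, turn pyruvate into lactate and export it, or sense and answer low oxygen. They were chosen by name as members of these pathways. Of the 34 genes, 33 had a value in every library and 32 had a mean of at least 1 FPKM (a fragment count scaled to the length of the transcript and to the depth of the library), out of 10081 genes that reached this mean. The 2 that were not tested were Hk2, which lay below that mean, and Hif1a, which had no row of its own in 1 library.

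In the study, T follicular helper (Tfh) cells, the CD4+ T cells that help B cells in germinal centers, were compared with and without Bob1, a transcriptional coactivator encoded by Pou2af1. The Bob1KO group held 3 libraries from FoxP3GFP/DTR CD4Cre/+Bob1fl/fl mice, and the WT group held 3 libraries from FoxP3GFP/DTR CD4+/+Bob1fl/fl mice. Mice of both genotypes received 100 µg of NP49-CGG with complete Freund's adjuvant by the intraperitoneal route, and spleens were taken on day 7. Tfh cells were sorted as CD3+CD4+CXCR5+PD-1+GFP-, so that FoxP3+ follicular regulatory cells were removed in both groups, and 0.7 ng of RNA entered each library. Cre was driven by the Cd4 promoter, so Bob1 was deleted in the T cell lineage as a whole and not in Tfh cells alone, and WT mice carried the floxed alleles without Cre. By the study's description the libraries of a group came from separate experiments, each with several mice, so the spread between libraries includes that between experiments. The labels do not say whether libraries with the same replicate number shared an experiment.

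Glycolysis converts glucose to pyruvate in the cytosol and yields ATP without oxygen. Activated T cells raise glucose uptake and convert much of the pyruvate to lactate, which leaves the cell with protons through monocarboxylate transporters. When oxygen is low, the prolyl hydroxylases that mark HIF-1α for destruction through VHL slow down, and HIF-1 then activates many glycolytic genes together with genes of mitophagy and stress.

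Pou2af1, the deleted gene, had 1.16, 0.237 and 0.317 FPKM in Bob1KO libraries 1, 2 and 3, against 46.1, 32.5 and 34.4 FPKM in WT libraries 1, 2 and 3 (log2 fold change -4.65 ± 0.26 SE, limma adjusted p = 0.00373). Depth, estimated from the steps of low values, was about 20300000 to 28600000 fragments a library. The estimate is rough, since only 21.5% to 33.2% of low values came within 0.05 of whole reads. Cd3e, Cd4, Cxcr5, Pdcd1 and Sh2d1a were each above 150 FPKM in all 6 libraries, while Ms4a1 and Pax5 of B cells and Cd8a were each below 1 FPKM in all 6. The 14 myeloid markers, all of them detected in every library, summed to 96.7 to 5214 FPKM in Bob1KO libraries and 625 to 1174 FPKM in WT libraries. The extremes were Bob1KO library 1 (S100a8 at 2027 FPKM) and Bob1KO library 2 (S100a8 at 35.5 FPKM). The 9 B and plasma cell markers reported here summed to 178, 121 and 148 FPKM in Bob1KO libraries and 141, 98.8 and 119 FPKM in WT libraries, of which Xbp1 made up 60.4% to 77.5%. Among them Cd22 had 25.01 to 44.9 FPKM in Bob1KO libraries and 17.8 to 32.8 FPKM in WT libraries, and Jchain had 1.86 to 16.8 FPKM in Bob1KO libraries and 1.93 to 5.55 FPKM in WT libraries. Both were highest in Bob1KO library 1, and Cd8b1 had 3.44 to 5.16 FPKM in Bob1KO libraries and 4.54 to 5.995 FPKM in WT libraries. NK and CD8 T cell markers summed to 101 to 149 FPKM in Bob1KO libraries and 109 to 164 FPKM in WT libraries. Erythroid markers summed to 14.4 to 31.3 FPKM in Bob1KO libraries and 10.7 to 24.6 FPKM in WT libraries, and dendritic cell markers to 23.8 to 81.7 FPKM in Bob1KO libraries and 26.3 to 42.2 FPKM in WT libraries. In bulk samples, fewer cells of a type and less RNA per cell cannot be told apart.

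Hypoxia response elements are built around the letters ACGTG, or less often GCGTG, and the sequences below show where these letters lie at the starts of 4 of the genes that the results turn on. The windows are 300 bases long, written 5′ to 3′ on the gene's strand, from RefSeq (GRCm38.p6), and capitals mark these letters on either strand. Ldha is the most abundant lactate gene, Slc16a3 had the largest fold change, Bnip3 was the one gene whose groups did not overlap, and Ddit4 had the next smallest unadjusted p after Slc16a3.
Slc16a3 promoter, chr11:120948817-120949116 (+ strand): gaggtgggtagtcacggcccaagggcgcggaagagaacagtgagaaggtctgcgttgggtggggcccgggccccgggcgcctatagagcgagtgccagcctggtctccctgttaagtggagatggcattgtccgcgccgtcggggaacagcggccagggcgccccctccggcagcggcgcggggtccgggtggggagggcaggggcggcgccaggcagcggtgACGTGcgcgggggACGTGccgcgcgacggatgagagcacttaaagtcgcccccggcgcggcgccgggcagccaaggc
Ldha promoter, chr7:46845554-46845853 (+ strand): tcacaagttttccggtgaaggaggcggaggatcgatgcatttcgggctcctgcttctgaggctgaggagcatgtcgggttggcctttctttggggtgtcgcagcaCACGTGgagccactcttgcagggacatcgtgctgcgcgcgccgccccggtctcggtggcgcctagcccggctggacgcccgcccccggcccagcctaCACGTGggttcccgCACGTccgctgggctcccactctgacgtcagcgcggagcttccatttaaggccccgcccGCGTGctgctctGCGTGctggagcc
Bnip3 promoter, chr7:138909457-138909756 (- strand): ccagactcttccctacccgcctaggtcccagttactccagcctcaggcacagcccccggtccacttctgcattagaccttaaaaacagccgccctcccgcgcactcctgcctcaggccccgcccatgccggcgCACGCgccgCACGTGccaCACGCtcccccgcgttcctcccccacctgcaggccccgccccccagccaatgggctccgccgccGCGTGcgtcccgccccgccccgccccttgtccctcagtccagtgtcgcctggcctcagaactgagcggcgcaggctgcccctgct
Ddit4 promoter, chr10:59951721-59952020 (- strand): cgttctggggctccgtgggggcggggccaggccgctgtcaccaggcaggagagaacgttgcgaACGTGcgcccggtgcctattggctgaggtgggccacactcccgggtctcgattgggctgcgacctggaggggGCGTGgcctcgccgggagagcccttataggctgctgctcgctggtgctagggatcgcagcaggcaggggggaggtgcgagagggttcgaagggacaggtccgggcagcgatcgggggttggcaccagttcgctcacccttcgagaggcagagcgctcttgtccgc
The Slc16a3 window held ACGTG 2 times and no GCGTG, both copies close together on the gene's strand. The Ldha window shown held the palindrome CACGTG, which contains ACGTG on both strands, 2 times, and the Bnip3 window held it 1 time. Ldha has another start, whose window (chr7:46846832-46847131, not shown) held GCGTG 2 times and no ACGTG. Windows were found for 31 of the 34 genes, all but Slc2a3, Bnip3l and Bsg, and several genes had more than 1 start, giving 45 windows. At least 1 of the 5-letter motifs, searched on both strands, occurred in 37 of 45 windows (82.2%), against 43.8% of all 32851 windows of this length. ACGTG alone occurred in 27 of 45 windows (60.0%), against 19.6% of all windows, and CACGTG in 6 of 45 (13.3%), against 7.15% of all. Windows of the same gene can overlap. Counted by gene, either 5-letter motif occurred in 28 of 31 genes (90.3%), against 46.7% of all 27025 genes with a window. The base composition of the windows was not matched. These shares count letters only; they are not binding sites, and many of the genes were listed because they are known targets of HIF-1.

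Glycolytic transcripts were abundant in both groups, and no gene of the module passed the test between Bob1KO and WT cells. By limma with Benjamini-Hochberg adjustment over all 10081 genes, 0 of 32 tested genes had an adjusted p under 0.05, where 2 genes of the whole table did (0.0198%, with 0.00992% higher and 0.00992% lower). At an unadjusted p under 0.05, 1 of the 32 passed, Slc16a3, and it was higher in Bob1KO cells, where 5.35% of all genes passed in either direction with 3.17% higher and 2.17% lower. The FPKM of the 2 groups did not overlap for 1 of 32 genes, Bnip3, which was lower in Bob1KO cells, where 10.7% of all genes did not overlap, with 5.83% higher and 4.9% lower. Each share rests on 1 gene of 32 (3.1%), so its distance from the share of all genes cannot be read as a difference. The median log2 fold change was 0.05 over the 32 genes and -0.00264 over all genes. The estimate was smaller than its standard error for 22 of the 32 genes and under 0.2 in size for 24.

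**Figure D1:**
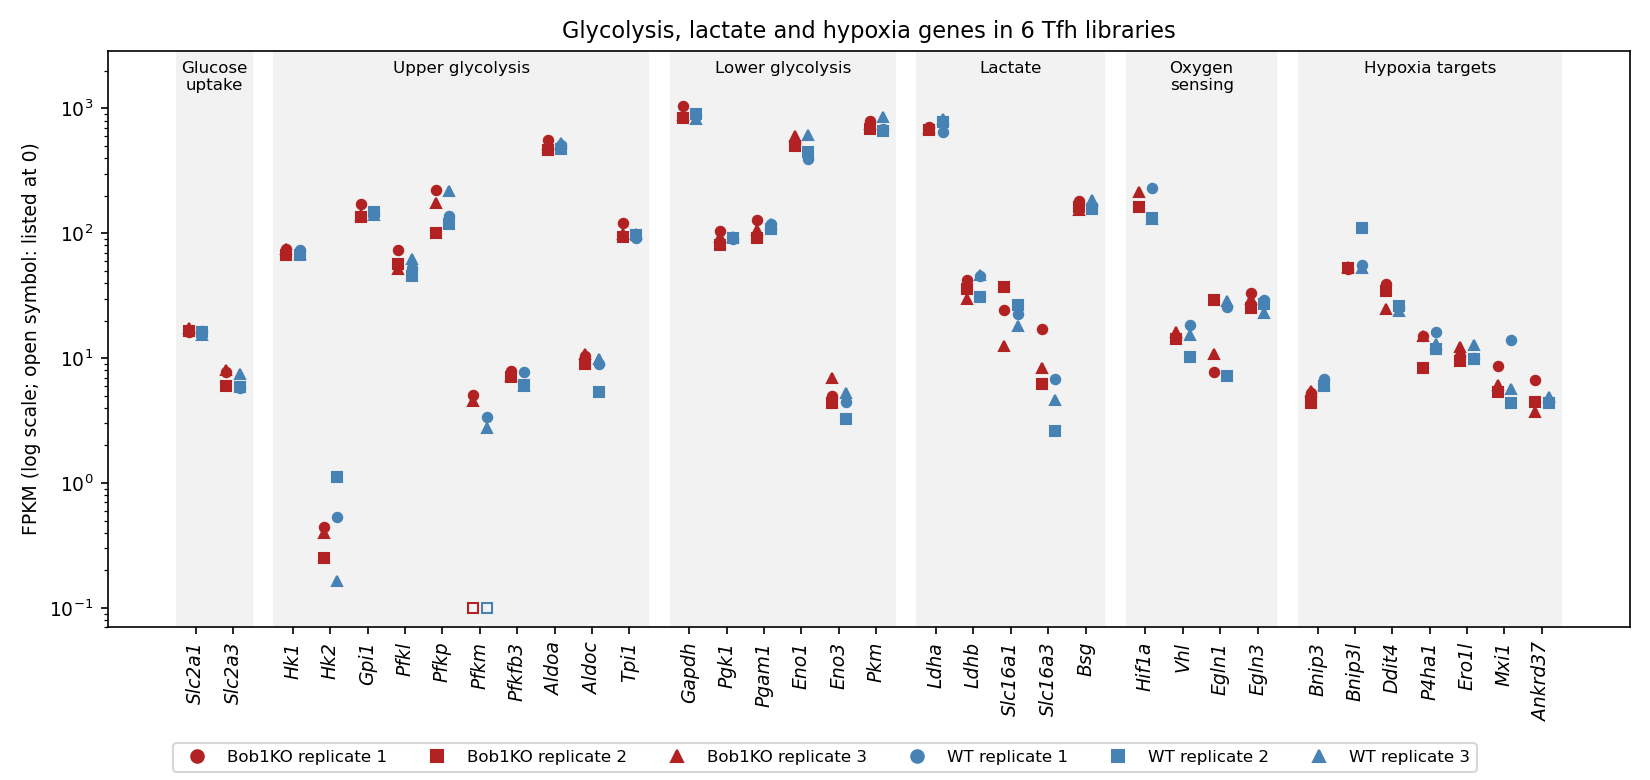
FPKM of the 34 genes on a log axis, grouped by role, with 1 symbol for each library, Bob1KO in red to the left of WT in blue. Open symbols stand for values listed at 0, which cannot be placed on a log axis and are drawn at its foot (Pfkm in both replicate 2 libraries), and Hif1a has no value in Bob1KO library 1. Gapdh, Pkm and Ldha lie near the top in every library, and red and blue symbols overlap for all genes but Bnip3.

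Glucose enters through facilitative transporters. Slc2a1, which encodes GLUT1, the transporter raised on T cell activation, was measured at 16.3, 16.4 and 17.4 FPKM in Bob1KO libraries and 16.6, 16.3 and 15.4 FPKM in WT libraries. The 6 values span a narrow range and the groups overlapped (log2 fold change 0.05 ± 0.11 SE, 95% interval -0.20 to 0.31, limma adjusted p = 0.974). Slc2a3, which encodes the high-affinity transporter GLUT3, had 7.71, 6.01 and 8.10 FPKM in Bob1KO libraries and 5.73, 5.89 and 7.47 FPKM in WT libraries. The replicate 3 library was the highest of its group in each genotype, and the groups overlapped (log2 fold change 0.17 ± 0.17 SE, 95% interval -0.24 to 0.57, limma adjusted p = 0.949). Slc2a1 made up 67.4% to 74.3% of the FPKM of this pair over the 6 libraries.

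The upper, ATP-consuming part of glycolysis was read from 10 genes. Hexokinase, which traps glucose as glucose 6-phosphate, was represented by Hk1 at 67.7 to 75.0 FPKM in Bob1KO libraries and 66.6 to 74.1 FPKM in WT libraries. Hk2, the hexokinase often raised in proliferating cells, had 0.441, 0.250 and 0.399 FPKM in Bob1KO libraries and 0.538, 1.12 and 0.166 FPKM in WT libraries and was not tested. Hk1 accounted for 98.3% to 99.8% of the FPKM of this pair over the 6 libraries. Hk3, a form outside the list of 34, had 4.31, 0 and 2.01 FPKM in Bob1KO libraries and 1.05, 0 and 0 FPKM in WT libraries.

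Phosphofructokinase, the committed step, was carried mainly by the platelet type Pfkp and the liver type Pfkl. Pfkp, whose span overlaps Pitrm1, had 222, 101 and 175 FPKM in Bob1KO libraries and 137, 118 and 220 FPKM in WT libraries. Bob1KO libraries 1 and 3 and WT library 3 were higher than the other libraries, and the difference was small beside its error (log2 fold change 0.05 ± 0.34 SE, 95% interval -0.75 to 0.84, limma adjusted p = 0.995). Pfkl had 51.8 to 73.7 FPKM in Bob1KO libraries and 45.2 to 62.1 FPKM in WT libraries, and Pfkp took 63.8% to 78.0% of the FPKM of both. The muscle type Pfkm, whose span overlaps Senp1, was listed at 0 in both replicate 2 libraries and otherwise had 5.06 and 4.53 FPKM in Bob1KO libraries 1 and 3 and 3.37 and 2.74 FPKM in WT libraries 1 and 3. Pfkfb3, which makes the activator fructose 2,6-bisphosphate, had 7.09 to 7.84 FPKM in Bob1KO libraries and 5.94 to 7.71 FPKM in WT libraries.

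Aldolase splits the 6-carbon sugar, and its main form here was Aldoa, with 564, 464 and 521 FPKM in Bob1KO libraries and 514, 470 and 533 FPKM in WT libraries. The WT values lay inside the range of the Bob1KO values (log2 fold change 0.03 ± 0.12 SE, 95% interval -0.26 to 0.32, limma adjusted p = 0.988). Aldoc, the brain form, reached 9.04 to 10.8 FPKM in Bob1KO libraries and 5.34 to 9.89 FPKM in WT libraries, and Aldoa was 98.0% to 98.9% of the FPKM of both. The glucose phosphate isomerase gene Gpi1 had 136 to 173 FPKM in Bob1KO libraries and 140 to 149 FPKM in WT libraries, and the triose phosphate isomerase gene Tpi1 had 93.2 to 121 FPKM in Bob1KO libraries and 92.1 to 99.5 FPKM in WT libraries. In both of these genes Bob1KO library 1 was the highest of all 6. The span of Tpi1 overlaps that of Spsb2.

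The 9 tested genes of this upper group all had a log2 fold change above 0, from 0.03 for Aldoa to 0.35 for Pfkm, with a median of 0.11 and no adjusted p below 0.945. Over the whole module 22 of 32 genes were above 0, where 49.4% of all tested genes were. That count was 14 of 32 without Bob1KO library 1 and ranged up to 25 when each library was left out in turn.

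The lower, ATP-yielding part held the most abundant transcripts. Gapdh, which oxidizes glyceraldehyde 3-phosphate, had 1056, 842 and 880 FPKM in Bob1KO libraries and 867, 911 and 820 FPKM in WT libraries, and it ranked 37 of 10081 genes by mean FPKM. Only Bob1KO library 1 lay above the WT range (log2 fold change 0.09 ± 0.13 SE, 95% interval -0.23 to 0.41, limma adjusted p = 0.962). Pkm, which makes pyruvate and ATP and is spliced into an M1 and an M2 form, had 788, 681 and 757 FPKM in Bob1KO libraries and 683, 660 and 851 FPKM in WT libraries. The highest value belonged to WT library 3, and the groups overlapped (log2 fold change 0.03 ± 0.14 SE, 95% interval -0.31 to 0.37, limma adjusted p = 0.992). The 2 splice forms of Pkm were not separated by these gene-level values.

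Enolase was carried by Eno1 at 498 to 606 FPKM in Bob1KO libraries and 392 to 612 FPKM in WT libraries, which was 98.9% to 99.3% of the FPKM of Eno1 and the muscle form Eno3 together. Eno3 had 4.36 to 6.93 FPKM in Bob1KO libraries and 3.25 to 5.22 FPKM in WT libraries, and its span overlaps Pfn1. Phosphoglycerate kinase, from Pgk1, had 81.3 to 104 FPKM in Bob1KO libraries and 90.7 to 92.8 FPKM in WT libraries. Phosphoglycerate mutase, from Pgam1, was the single gene of this lower group with a log2 fold change below 0 (-0.10 ± 0.14 SE), at 91.0 to 127 FPKM in Bob1KO libraries and 109 to 119 FPKM in WT libraries. Gapdh, Pgk1, Ldha, Aldoa, Pgam1, Ldhb, Vhl and Bnip3l have named processed copies in RefSeq, and Eno1 has the copy Eno1b, which reached at most 0.886 FPKM. Their reads may be shared with those copies.

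**Figure D2:**
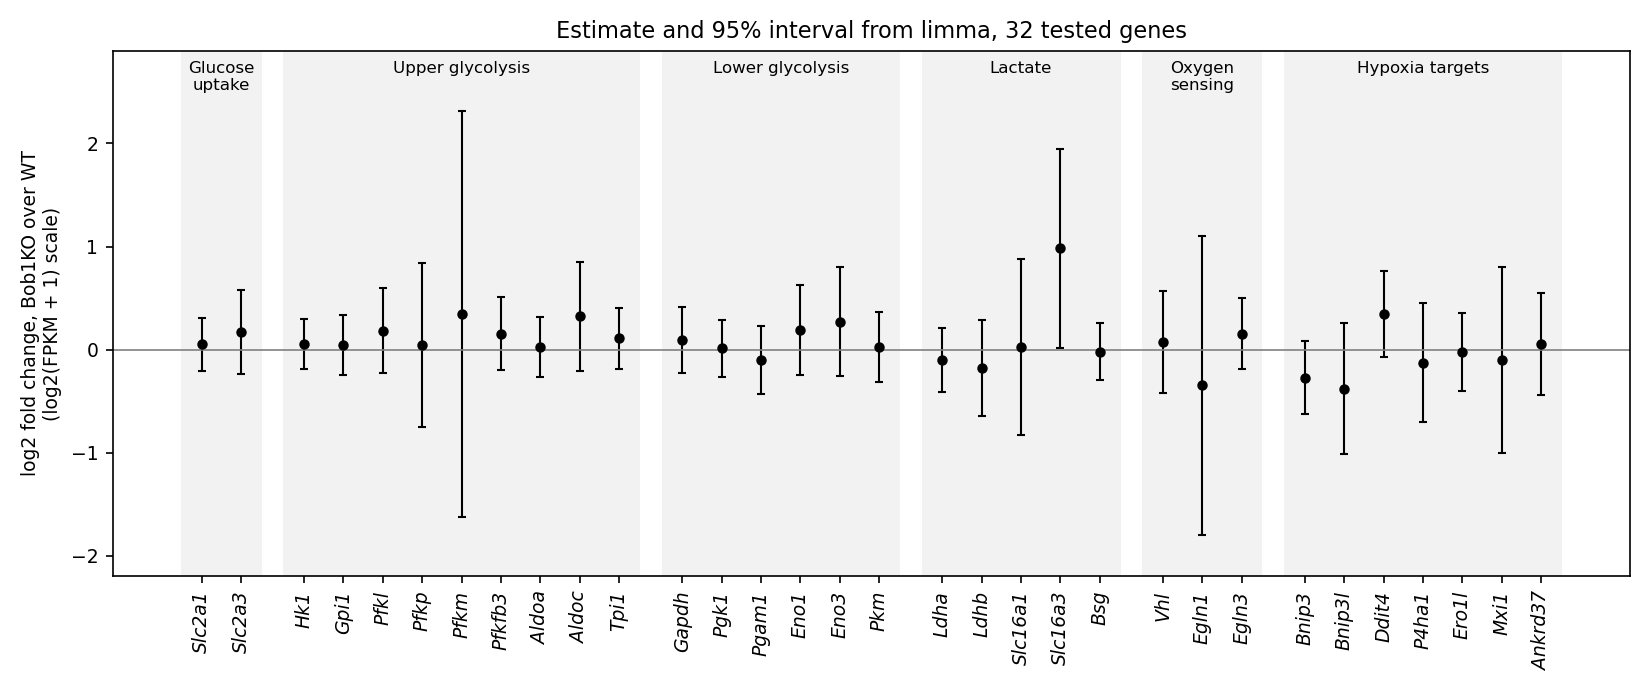
Log2 fold change, Bob1KO over WT, for the 32 tested genes on the log2(FPKM + 1) scale, by role, with the limma estimate as a point and its 95% interval as a bar. The interval of Slc16a3 lies just above 0, all others cross 0, and the intervals of Pfkm and Egln1 are the widest.

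Summed over the glycolytic enzymes and lactate dehydrogenase, Bob1KO libraries held 4615, 3843 and 4262 FPKM and WT libraries 3883, 3984 and 4512 FPKM. The sums overlapped, with the highest and the lowest both in the Bob1KO group.

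Lactate formation and export contained the largest fold change of the module. Slc16a3 (chr11:120948484-120959000), which encodes the lactate exporter MCT4, had 17.2, 6.20 and 8.31 FPKM in Bob1KO libraries and 6.86, 2.60 and 4.59 FPKM in WT libraries. Bob1KO library 1 stood well above the others, and Bob1KO library 2 lay below WT library 1, so the groups overlapped. The means were 10.6 ± 5.87 FPKM in Bob1KO cells and 4.68 ± 2.13 FPKM in WT cells (SD, n = 3 each). The log2 fold change was 0.98 ± 0.41 SE, with a 95% interval of 0.02 to 1.95, and the limma test over all genes gave an unadjusted p of 0.0471 and an adjusted p of 0.921. In each genotype library 1 was the highest, library 3 came next and library 2 was the lowest.

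Within the Bob1KO group Slc16a3 and the myeloid markers had the same order of libraries, as did Pfkp, Aldoa, Gapdh, Pkm and Ldha. Bsg, Ddit4 and Slc16a1 did not have it. In the WT group the order of Slc16a3 differed from that of the markers, while the order of Pfkp did not. The markers summed to 5214, 96.7 and 1743 FPKM in Bob1KO libraries 1, 2 and 3, against 776, 625 and 1174 FPKM in WT libraries 1, 2 and 3, and their part in the Slc16a3 difference was not tested. Without Bob1KO library 1 the log2 fold change was 0.60, and without Bob1KO library 2, which had the least myeloid signal, it was 1.27. The RefSeq span of Slc16a3 overlaps that of Csnk1d.

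Slc16a1, which encodes the broadly expressed transporter MCT1, had 24.4, 37.2 and 12.5 FPKM in Bob1KO libraries and 22.6, 26.7 and 18.1 FPKM in WT libraries. Library 2 was the highest and library 3 the lowest in both genotypes, and the log2 fold change was 0.02 ± 0.36 SE. Slc16a1 made up 58.6%, 85.7% and 60.2% of the FPKM of the 2 transporters in Bob1KO libraries, against 76.7%, 91.1% and 79.8% in WT libraries. Bsg, which encodes basigin, the chaperone that brings both transporters to the membrane, had 183, 162 and 154 FPKM in Bob1KO libraries and 165, 157 and 185 FPKM in WT libraries. Its groups overlapped almost completely (log2 fold change -0.02 ± 0.12 SE, 95% interval -0.30 to 0.25, limma adjusted p = 0.992), and the sign turned to above 0, at 0.00827, after quantile normalization.

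Ldha, the muscle-type lactate dehydrogenase subunit that favors lactate formation, had 711, 675 and 699 FPKM in Bob1KO libraries and 649, 774 and 823 FPKM in WT libraries. The Bob1KO values were close together and lay inside the WT range (log2 fold change -0.10 ± 0.13 SE, 95% interval -0.41 to 0.21, limma adjusted p = 0.957). Ldhb, the heart-type subunit, had 29.8 to 42.0 FPKM in Bob1KO libraries and 31.0 to 46.6 FPKM in WT libraries, and Ldha was 93.4% to 96.1% of the FPKM of both.

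**Figure D3:**
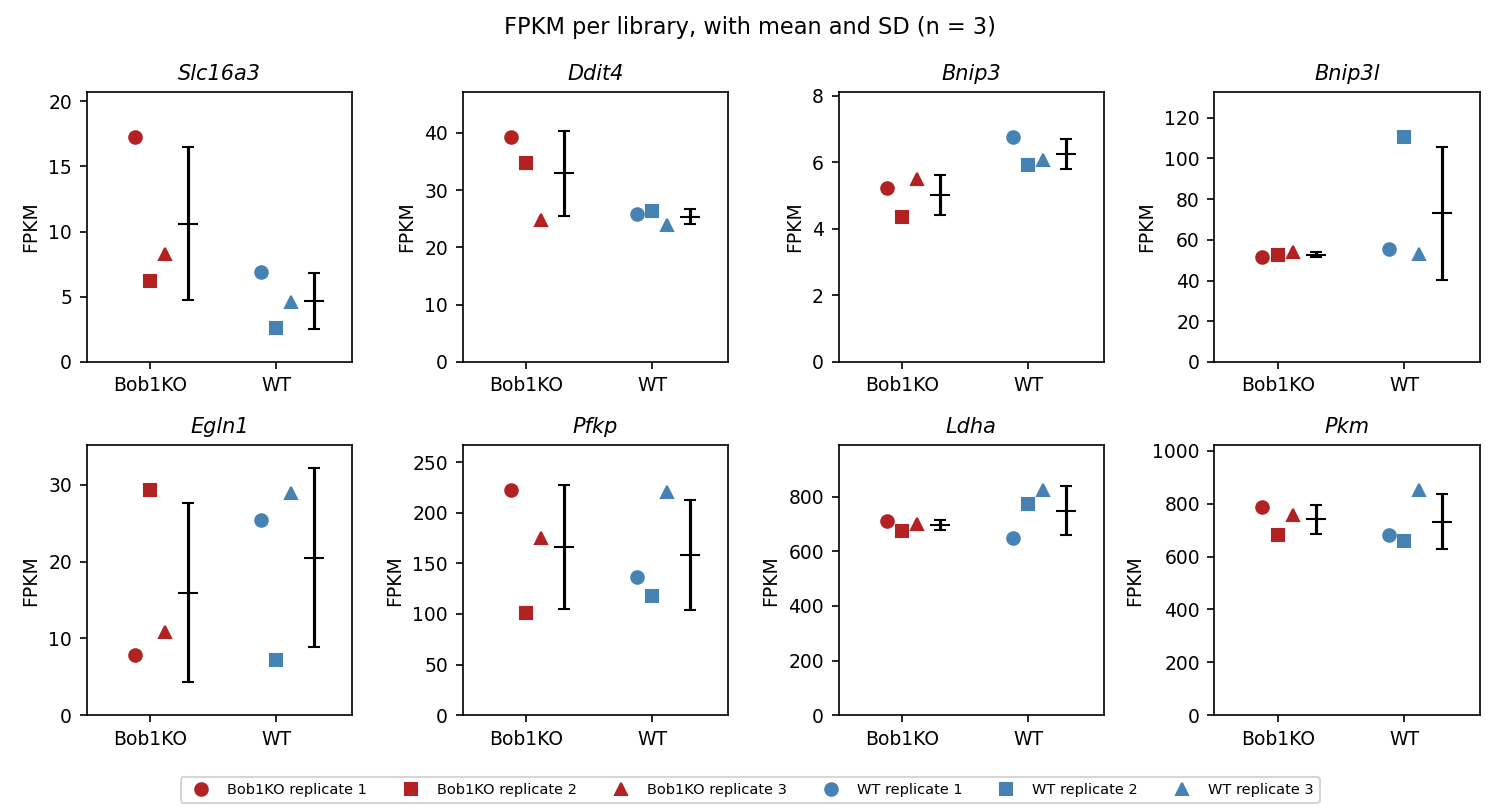
FPKM of 8 genes in each library, with linear axes starting at 0, Bob1KO left of WT; black marks give the mean and SD of 3 libraries. Slc16a3 shows 1 high Bob1KO library at 17.2 FPKM, Bnip3 shows separated groups, Bnip3l shows 1 high WT library at 111 FPKM, and Egln1 falls into a low and a high set in both genotypes.

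Oxygen sensing was read from 4 genes, of which Hif1a, the oxygen-regulated subunit of HIF-1, could not be tested. Its own row gave 163 and 215 FPKM in Bob1KO libraries 2 and 3 and 229, 134 and 130 FPKM in WT libraries 1, 2 and 3. In Bob1KO library 1 the deposited assembly joined Hif1a to the neighboring Prkch in 1 row at 401 FPKM, from which the share of Hif1a could not be read. Vhl, the substrate receptor of the ligase that degrades HIF-1α, had 14.2 to 16.3 FPKM in Bob1KO libraries and 10.2 to 18.4 FPKM in WT libraries.

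Egln3, which encodes the prolyl hydroxylase PHD3, itself a HIF-1 target, had 33.0, 25.4 and 30.1 FPKM in Bob1KO libraries and 29.2, 27.0 and 22.9 FPKM in WT libraries. The highest value was in the Bob1KO group and the lowest in the WT group, with overlap between them (log2 fold change 0.15 ± 0.15 SE, 95% interval -0.19 to 0.50, limma adjusted p = 0.947). Egln1, which encodes PHD2, the main oxygen sensor of this family, had 7.78, 29.3 and 10.8 FPKM in Bob1KO libraries and 25.5, 7.17 and 28.9 FPKM in WT libraries. Bob1KO libraries 1 and 3 and WT library 2 were low and the other libraries high, so the spread inside each group was larger than the difference between them (log2 fold change -0.35 ± 0.62 SE, 95% interval -1.80 to 1.11, limma adjusted p = 0.971). Egln3 was 80.9%, 46.5% and 73.6% of the FPKM of both hydroxylases in Bob1KO libraries, against 53.4%, 79.0% and 44.2% in WT libraries.

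The 7 hypoxia targets outside glycolysis had a median log2 fold change of -0.10, with 5 below 0 and 2 above. Bnip3 (chr7:138890836-138909506), a mitophagy receptor on the outer mitochondrial membrane, had 5.22, 4.34 and 5.49 FPKM in Bob1KO libraries and 6.76, 5.93 and 6.07 FPKM in WT libraries. Every Bob1KO value lay below every WT value, and the means were 5.02 ± 0.60 FPKM in Bob1KO cells and 6.26 ± 0.44 FPKM in WT cells (SD, n = 3 each). The difference did not pass the test (log2 fold change -0.27 ± 0.15 SE, 95% interval -0.63 to 0.08, limma unadjusted p = 0.114 and adjusted p = 0.945).

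Bnip3l, the related receptor NIX, had 51.8, 52.6 and 53.9 FPKM in Bob1KO libraries and 55.4, 111 and 53.1 FPKM in WT libraries. Apart from WT library 2, all values lay between 51.8 and 55.4 FPKM. The row of that library began outside the gene, at chr14:66971095-67008886 against chr14:66985238-67008877 for Bnip3l, and the log2 fold change of -0.38 ± 0.27 SE (95% interval -1.02 to 0.26, limma adjusted p = 0.945) was -0.04 without it. Bnip3l was 89.1% to 94.9% of the FPKM of the 2 receptors.

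Ddit4 (chr10:59949675-59951770), which encodes REDD1, an inhibitor of mTORC1 raised by hypoxia and other stresses, had 39.3, 34.8 and 24.8 FPKM in Bob1KO libraries and 25.9, 26.3 and 23.8 FPKM in WT libraries. Bob1KO libraries 1 and 2 were above all WT libraries and Bob1KO library 3 was within their range. The log2 fold change was 0.34 ± 0.18 SE (95% interval -0.07 to 0.76, limma unadjusted p = 0.0935 and adjusted p = 0.945).

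The other 4 targets differed by less than their standard errors. P4ha1, a subunit of the collagen prolyl hydroxylase, had 8.32 to 15.2 FPKM in Bob1KO libraries and 11.8 to 16.3 FPKM in WT libraries. Ero1l, the endoplasmic reticulum oxidase now named Ero1a, had 9.41 to 12.3 FPKM in Bob1KO libraries and 9.77 to 12.8 FPKM in WT libraries. Mxi1, an antagonist of MYC, had 5.38 to 8.62 FPKM in Bob1KO libraries and 4.40 to 13.9 FPKM in WT libraries. Ankrd37, whose span overlaps Ufsp2, had 3.70 to 6.66 FPKM in Bob1KO libraries and 4.40 to 4.86 FPKM in WT libraries.

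**Figure D4:**
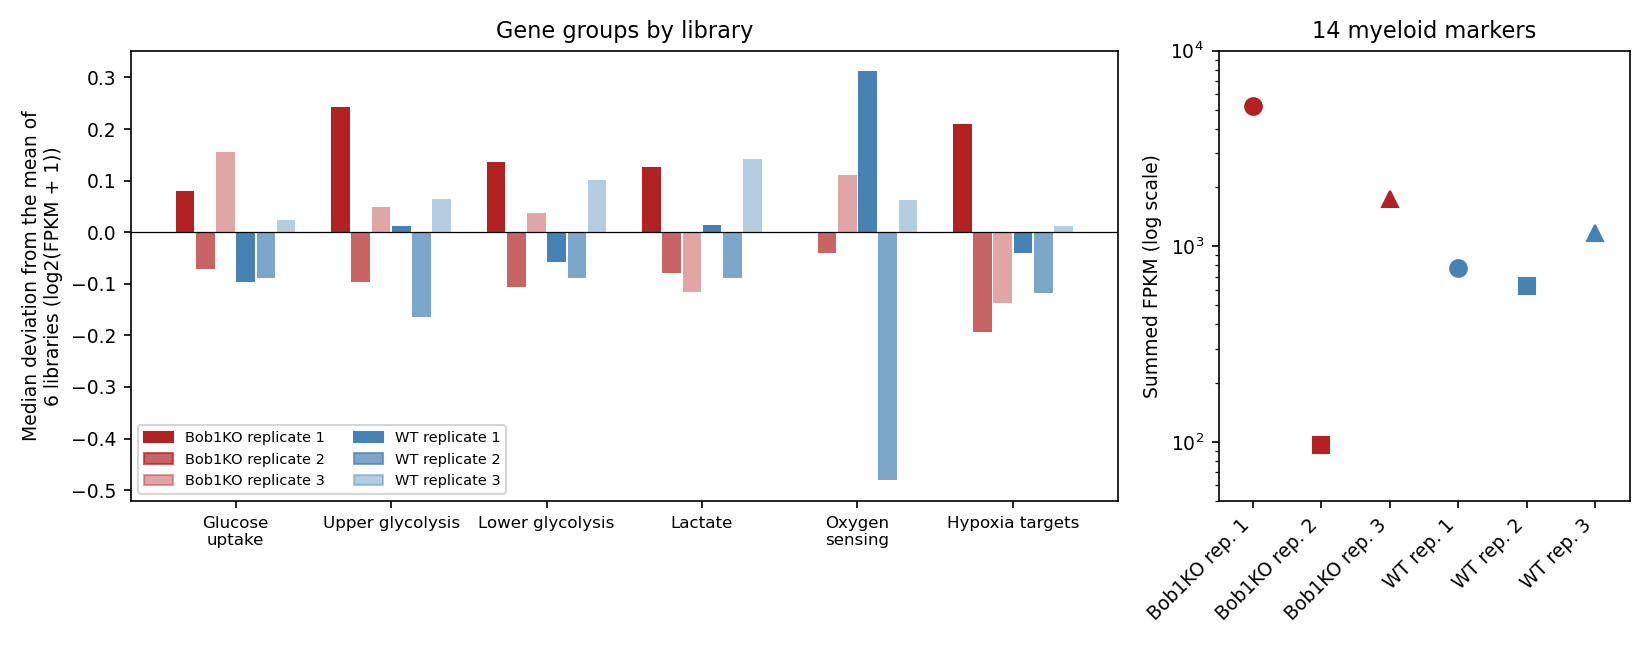
Left, the median deviation of each role group from the mean of the 6 libraries on the log2(FPKM + 1) scale, with a bar for each library, Bob1KO in red left of WT in blue; right, the summed FPKM of 14 myeloid markers in each library on a log axis. Bob1KO library 1 is the highest in upper glycolysis, in lower glycolysis and in hypoxia targets, and it has the largest myeloid sum, 5214 FPKM.

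Much of the variation among these genes lay between libraries of the same genotype. Transcripts were assembled in each library separately, and the part of that step in the spread, as for Egln1 and Pfkm, was not tested. The genes' median deviation was 0.16, -0.09 and 0.03 in Bob1KO libraries 1, 2 and 3 and -0.00436, -0.12 and 0.06 in WT libraries 1, 2 and 3, and for all tested genes it was 0.02, -0.04 and 0.01 in Bob1KO libraries and 0.01, -0.06 and 0.05 in WT libraries. Bob1KO library 1 was the highest of the 6 for 15 of 32 genes, and Bob1KO library 2 and WT library 2 were each the lowest for 9. The myeloid sum was also largest in Bob1KO library 1 and smallest in Bob1KO library 2, and its part in these levels was not tested. Without Bob1KO library 1 the median log2 fold change of the 32 genes was -0.01.

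Around the module, 104 further pathway genes were listed and 78 were tested. None had an adjusted p under 0.05 by limma, 6 were higher and 1 lower at an unadjusted p under 0.05 (8.97%, against 5.35% of all genes), and the median log2 fold change was 0.00479. The groups did not overlap for 8 of the 78 (10.3%), against 10.7% of all genes. Among 16 tested genes of the wider glucose pathway, Pgam2, the muscle phosphoglycerate mutase, had 22.8, 5.92 and 16.9 FPKM in Bob1KO libraries and 4.23, 3.15 and 5.64 FPKM in WT libraries. All Bob1KO values lay above all WT values (log2 fold change 1.45 ± 0.45 SE, limma unadjusted p = 0.0144 and adjusted p = 0.854). In both genotypes the order of the libraries was that of their myeloid sums, whose part was not tested. Gpd2, the mitochondrial glycerol 3-phosphate dehydrogenase, had 11.1, 13.045 and 7.51 FPKM in Bob1KO libraries and 5.21, 5.42 and 8.07 FPKM in WT libraries (log2 fold change 0.67 ± 0.24 SE, limma adjusted p = 0.914). Bpgm, which makes 2,3-bisphosphoglycerate, had 19.9, 20.0 and 19.9 FPKM in Bob1KO libraries and 25.2, 32.7 and 23.0 FPKM in WT libraries, with no overlap (log2 fold change -0.40 ± 0.15 SE, limma adjusted p = 0.914).

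Where glucose carbon leaves glycolysis, no gene reached an unadjusted p under 0.05. This held for 7 tested genes of the pentose phosphate pathway, 9 of the serine and glycogen branches, and 12 of pyruvate entry into mitochondria. Of these 12, 10 were below 0 with a median log2 fold change of -0.12, where 5096 of all 10081 tested genes were below 0. How this count moves with single libraries left out was not tested. Of 9 further genes of oxygen sensing, Crebbp, a coactivator that binds HIF-1, had 7.48, 10.3 and 6.65 FPKM in Bob1KO libraries and 5.55, 5.72 and 4.76 FPKM in WT libraries (log2 fold change 0.51 ± 0.19 SE, limma unadjusted p = 0.0291 and adjusted p = 0.914).

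Of 19 further hypoxia targets, Anxa2, which encodes the membrane-binding protein annexin A2, had 233, 155 and 213 FPKM in Bob1KO libraries and 148, 122 and 135 FPKM in WT libraries. The groups did not overlap (log2 fold change 0.55 ± 0.17 SE, limma unadjusted p = 0.0155 and adjusted p = 0.858). The order of the libraries followed that of their myeloid sums in the Bob1KO group but not in the WT group. The part of these sums was not tested. Nfil3, a transcriptional repressor, had 38.3, 54.9 and 29.7 FPKM in Bob1KO libraries and 34.1, 19.8 and 21.9 FPKM in WT libraries (log2 fold change 0.67 ± 0.27 SE, limma unadjusted p = 0.0445 and adjusted p = 0.921). Of 10 regulators of glycolysis, which included Myc, Mtor and Akt1, only Irf4, a transcription factor induced by T cell receptor signals, reached an unadjusted p under 0.05. Irf4 had 5.62, 5.87 and 7.75 FPKM in Bob1KO libraries and 4.91, 4.78 and 2.89 FPKM in WT libraries (log2 fold change 0.53 ± 0.22 SE, limma unadjusted p = 0.0485 and adjusted p = 0.921).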

How the data were processed

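RNA of 6 sorted Tfh samples (3 Bob1KO, 3 WT) was amplified with the SMART-Seq v4 kit, which does not mark strand. The authors' notes name cutadapt 1.2.1, TopHat2 2.0.13 and Cufflinks 2.2.1, with GRCm38 (mm10). The deposited per-library FPKM values were computed by the authors with Cufflinks, with transcripts assembled in each library. Between 94.1% and 95.9% of FPKM stood in rows named by the assembly, so rows were assigned to RefSeq genes by position, at a share of at least 0.5 of the joint span, or else where a remaining row covered at least 0.95 of the gene, and summed per gene. Of rows with a gene name, at least 99.9% went to that gene. The deposited series table holds the authors' group FPKM values and their fold changes and p-values; no result rests on it, and its comparisons were not used.

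Genes with a mean of at least 1 FPKM were tested in limma 3.58.1 (R 4.3.3) on log2(FPKM + 1) with eBayes trend, group as the only term, two-sided, Benjamini-Hochberg over 10081 genes and a threshold of 0.05. Fold changes are on that scale and understate changes of low genes. No counts could be recovered, since only 21.5% to 33.2% of low values came within 0.05 of whole reads. In simulated data on the same 10081 genes, a set of genes was changed, with normal noise whose SD was drawn at random over genes. Of the changes, 50% of 2-fold and 83% of 4-fold ones were recovered, with 8 false calls. The real table had 2 calls and so a stricter cutoff, and these shares do not give the power of the test on the real data.

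Single genes are given in detail where the unadjusted p was under 0.05, where the groups did not overlap, and for the 2 most abundant genes of each role. Of the other pathway lists, up to 4 genes with an unadjusted p under 0.05 are named. The genes and lists were chosen with earlier results of these data known. Of the B and plasma cell markers, 1 is not reported here. Alternatives covered the pseudocount, the filter, scaling, the variance trend, row assignment, a replicate block and leaving out libraries.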

Additional observations from a re-analysis of the deposited data

How the results depend on the processing

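No gene of the module had an adjusted p under 0.05 under any of the 17 alternatives. The count at an unadjusted p under 0.05 was 0 with a pseudocount of 5, with no filter on low values and with no trend in the variance. Leaving out each library in turn gave 0 to 1, with 0 without Bob1KO replicate 1 or WT replicate 2. A count of 1 was not always Slc16a3. Without Bob1KO replicate 3, Ddit4 (0.53 ± 0.13 SE) lay more standard errors from 0 than Slc16a3 (1.08 ± 0.49 SE). So did Egln1 (-1.47 ± 0.21 SE against 0.98 ± 0.38 SE) without both replicate 2 libraries, and Bnip3 (-0.34 ± 0.14 SE against 0.94 ± 0.40 SE) with quantile normalization. With single libraries left out, the median log2 fold change of the 32 genes ranged from -0.01 without Bob1KO replicate 1 to 0.11 without Bob1KO replicate 2. The number of genes above 0 ranged from 14 to 25. The cause was not tested.

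Log2 fold changes changed sign when single libraries were left out for Pfkp (-0.20 to 0.37), Aldoa (-0.038 to 0.10), Gapdh (-0.00682 to 0.16), Pkm (-0.042 to 0.14), Bsg (-0.091 to 0.043) and Egln1 (-0.94 to 0.020), and for Bsg with quantile normalization (0.00827). They kept their sign for Slc16a3 (0.60 to 1.27), Ddit4 (0.21 to 0.53), Bnip3 (-0.33 to -0.19) and Bnip3l (-0.56 to -0.040). Without both replicate 2 libraries, Egln1 stood at -1.47 ± 0.21 SE (limma adjusted p = 0.396) and Bnip3l at -0.038, and Pou2af1 at -4.60 had an adjusted p of 0.0697. Of the wider pathway genes, Bpgm was -0.26 without WT replicate 2, Irf4 was 0.33 without WT replicate 3, and Nfil3 was 0.44 without Bob1KO replicate 2 and 0.29 without both replicate 2 libraries. Over all genes, the number called was 1 with a pseudocount of 0.1, a mean of at least 5 FPKM or the replicate block, and 2 to 7 with single libraries left out.

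Libraries with the same replicate number were not treated as pairs, because their deviations correlated at 0.105, 0.156 and 0.0929, not all over 0.1, although each library correlated best with its own number. With the replicate block, 0 genes of the module had an adjusted p under 0.05, 1 had an unadjusted p under 0.05, and the median log2 fold change was 0.05. For Slc16a3 the block left the log2 fold change at 0.98 and gave a standard error of 0.163 and a limma adjusted p of 0.357, against 0.409 and 0.921 without it. Its differences between same-numbered libraries, Bob1KO minus WT on the log2(FPKM + 1) scale, were 1.21, 0.998 and 0.74.

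With 3 libraries a group and the spread seen here, the median standard error was 0.173 on the log2 scale, so small differences were not detectable. Larger ones could also miss the threshold. Slc16a3 at 0.98 and Pgam2 at 1.45 had limma adjusted p-values of 0.921 and 0.854. The absence of calls therefore does not show that changes of this size were absent. The FPKM of the row that joined Hif1a to Prkch cannot be split. For the Bnip3l row that began outside the gene, the part of the added span in its FPKM was not tested.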
